A study of Mus musculus with 10 samples.

Results

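A set of 9 transcription factors of the lymphatic endothelial lineage and of lymphatic valves was followed here across all 10 libraries: Prox1, Nr2f2, Sox18, Hhex, Tbx1, Foxc1, Foxc2, Gata2 and Nfatc1. They were chosen by name, as the rows of a table of 23284 gene symbols that carry these 9 symbols. All 9 passed the filter on low counts, which 15375 genes passed. RNA-Seq had been run on freshly sorted endothelial cells of C57BL/6 mice aged 6 to 8 weeks, with no further treatment or allele in any group. From lymph nodes (LN) came 4 libraries of lymphatic endothelial cells (LN-LEC) and 3 of blood endothelial cells (LN-BEC), and from the diaphragm, a peripheral tissue, 3 of lymphatic endothelial cells (D-LEC). Every population was CD45-negative and CD31-positive, and the presence or absence of podoplanin (PDPN) at the surface set lymphatic (LEC) apart from blood endothelial cells (BEC). Each library came from several pooled mice, and nodes of 5 kinds (inguinal, axillary, brachial, cervical and mesenteric) were mixed, so that neither single animals nor single node sites can be seen. Valve cells were not sorted apart, and fewer cells of a type cannot be told apart from less RNA per cell.

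In the embryo, Sox18 and Nr2f2 (COUP-TFII) act in venous endothelium to switch on Prox1, the factor that establishes and then maintains lymphatic identity. Hhex and Tbx1 act on the same program, in part through the VEGF-C receptor gene Flt4. Foxc2, Nfatc1, Gata2 and Foxc1 are needed for lymphatic valves, where flow sensing and calcineurin signalling through NFAT help to raise and organize the leaflets.

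The 9 genes lie on 9 chromosomes of the mm9 build, on which the counts were made. Foxc1 (13:31898515-31902504, plus strand) and Foxc2 (8:123640071-123642794, plus strand) each consist of 1 exon block. Prox1 lies at 1:191945658-191994559 (minus strand, 5 exon blocks), Nr2f2 at 7:77496836-77511632 (minus strand, 4 exon blocks), Tbx1 at 16:18581806-18587062 (minus strand, 7 exon blocks) and Sox18 at 2:181404542-181406345 (minus strand, 2 exon blocks). Gata2 lies at 6:88148658-88157026 (plus strand, 6 exon blocks) and Hhex at 19:37509331-37515221 (plus strand, 4 exon blocks), while Nfatc1 has 11 exon blocks on the minus strand. None of them shared an exon base with another annotated symbol, so that unstranded counting did not mix them with annotated exons of a neighbour. Reads of transcripts outside this annotation cannot be told apart in such counts.

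Promoter sequences are shown for Prox1, Tbx1 and Nr2f2, the factors whose LEC levels stood furthest above the BEC level among those with a sequence. They are the 250 bases before the transcription start in the RefSeq promoter table (build GRCm38.p6, which differs from the build of the counts). That table holds 9 windows for 6 of the factors: Prox1, Nr2f2, Hhex, Tbx1, Foxc1 and Gata2. For a factor with more than 1 window, the one farther upstream is printed. Foxc2, Sox18 and Nfatc1 are named only. Capitals mark GGAAAA, the core that NFAT proteins bind, read on either strand (TTTTCC on the other).
Prox1, 1:190170828-190171077, minus strand: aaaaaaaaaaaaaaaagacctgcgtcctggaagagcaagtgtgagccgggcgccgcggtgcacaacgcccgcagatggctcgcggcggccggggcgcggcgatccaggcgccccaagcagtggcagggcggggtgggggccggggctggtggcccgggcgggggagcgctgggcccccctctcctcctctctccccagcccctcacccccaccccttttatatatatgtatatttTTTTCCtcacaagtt
Tbx1, 16:18590672-18590921, minus strand: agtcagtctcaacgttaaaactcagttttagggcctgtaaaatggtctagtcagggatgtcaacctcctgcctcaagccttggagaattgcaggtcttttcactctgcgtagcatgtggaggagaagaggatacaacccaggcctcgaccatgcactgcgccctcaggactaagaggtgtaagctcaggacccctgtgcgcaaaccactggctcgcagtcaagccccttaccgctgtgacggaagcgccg
Nr2f2, 7:70366747-70366996, minus strand: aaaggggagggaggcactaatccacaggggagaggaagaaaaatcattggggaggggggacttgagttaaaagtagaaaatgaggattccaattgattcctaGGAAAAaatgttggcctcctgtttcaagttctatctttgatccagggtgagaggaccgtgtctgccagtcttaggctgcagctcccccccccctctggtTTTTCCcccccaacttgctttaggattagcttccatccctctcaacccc
The Prox1 window held 1 GGAAAA match, the Nr2f2 window 2 and the Tbx1 window none, while 20.4% of all 32851 windows of this length held at least 1. A further 4 cores were searched on both strands: GATAA (GATA factors, in 22.6% of all windows), TGTTTA (forkhead factors, in 12%), AACAAT (SOX factors, in 9.42%) and AGGTCA (nuclear receptors, in 14%). None of these 4 was present in the 3 printed windows. Of the other windows, the Foxc1 window held 1 GGAAAA match, the second Prox1 window held 1 TGTTTA match, and those of Hhex and Gata2 and the second Tbx1 window held no match. No match overlapped another. By base composition the windows differed: 64.8% of the Prox1 bases, 54.4% of the Tbx1 bases and 50% of the Nr2f2 bases were G or C, beside a median of 52.4% over all windows.

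The labels of the populations were checked against marker genes. All 4 pan-endothelial markers (Pecam1, Cdh5, Tek and Kdr) were detected in every library, with Pecam1 (CD31) itself a marker of the sort. Summed over 5 LEC markers (Lyve1, Pdpn, Reln, Flt4 and Mmrn1), FPKM (fragments scaled to exon length and library total, a level per length) lay at 1370 to 1572 in LN-LEC, 5214 to 5549 in D-LEC and 24.57 to 97.11 in LN-BEC, with Pdpn itself a marker of the sort. The 6 BEC markers (Flt1, Vwf, Nrp1, Notch4, Emcn and Selp) summed to 739 to 783.7 FPKM in LN-BEC, 16.45 to 28.33 in LN-LEC and 114.6 to 167.1 in D-LEC, where Emcn alone gave 111.9 to 163.5. LN-BEC replicate 3 stood apart with the highest LEC marker sum, and LN-LEC replicate 4 was the deepest of the libraries, which held 22429940 to 48906070 counted fragments. In D-LEC, 5 of 5 skeletal muscle markers and 5 of 5 mesothelial markers were higher in each library than in every LN library, at sums of 24.46 to 36.12 and 9.592 to 29.34 FPKM. In the LN libraries these sums reached at most 4.16 and 2.583 FPKM. The 9 leukocyte markers summed to 9.596 to 16.07 FPKM in LN-BEC and to at most 1.789 elsewhere. Among them, Ptprc (CD45) was also a marker of the sort. The 6 fibroblast and pericyte markers summed to 56.15 to 113.6 FPKM in the LN populations and 3.986 to 10.33 in D-LEC. Most of the last gap was Rgs5, at 49.66 to 82.5 FPKM in the LN libraries and 0.758 to 1.85 in D-LEC, while Col1a1 and Pdgfra overlapped between D-LEC and both LN populations. The part of these cells in any result below was not tested.

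Of the 9 factors, 7 were higher in LN-LEC than LN-BEC (Prox1, Tbx1, Foxc2, Nr2f2, Nfatc1, Foxc1 and Hhex), and Sox18 and Gata2 were lower (edgeR quasi-likelihood test, Benjamini-Hochberg adjusted p under 0.05). Of all tested genes, 19.8% were called up in LN-LEC and 18.4% up in LN-BEC. Past 5-fold were 4 factors (Prox1, Tbx1, Foxc2 and Nr2f2), beside 9.82% of all genes. Nr2f2 was close to that limit, at 5.13-fold (log2 fold change 2.36). When libraries were left out, its lowest log2 fold change was 2.3, which is under 5-fold. Against the same LN-BEC libraries, D-LEC had the same 7 factors higher and Gata2 lower, beside 22.4% of all genes called up in D-LEC and 25.6% up in LN-BEC. The same 4 factors passed 5-fold there, beside 15.2% of all genes. The median log2 fold change over the 9 factors was 1.53 for LN-LEC and 2.17 for D-LEC, and over all genes −0.01 and −0.05. Both comparisons rest on the same 3 LN-BEC libraries, so that they are not independent of each other. Between the LEC of the 2 tissues the differences were smaller: Hhex was higher in LN-LEC, Nr2f2, Nfatc1 and Sox18 were lower, none passed 5-fold, and 5 factors were not called. Of all genes, 24% were higher in LN-LEC, 21.7% higher in D-LEC and 12.1% past 5-fold in this comparison.

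**Figure D1:**
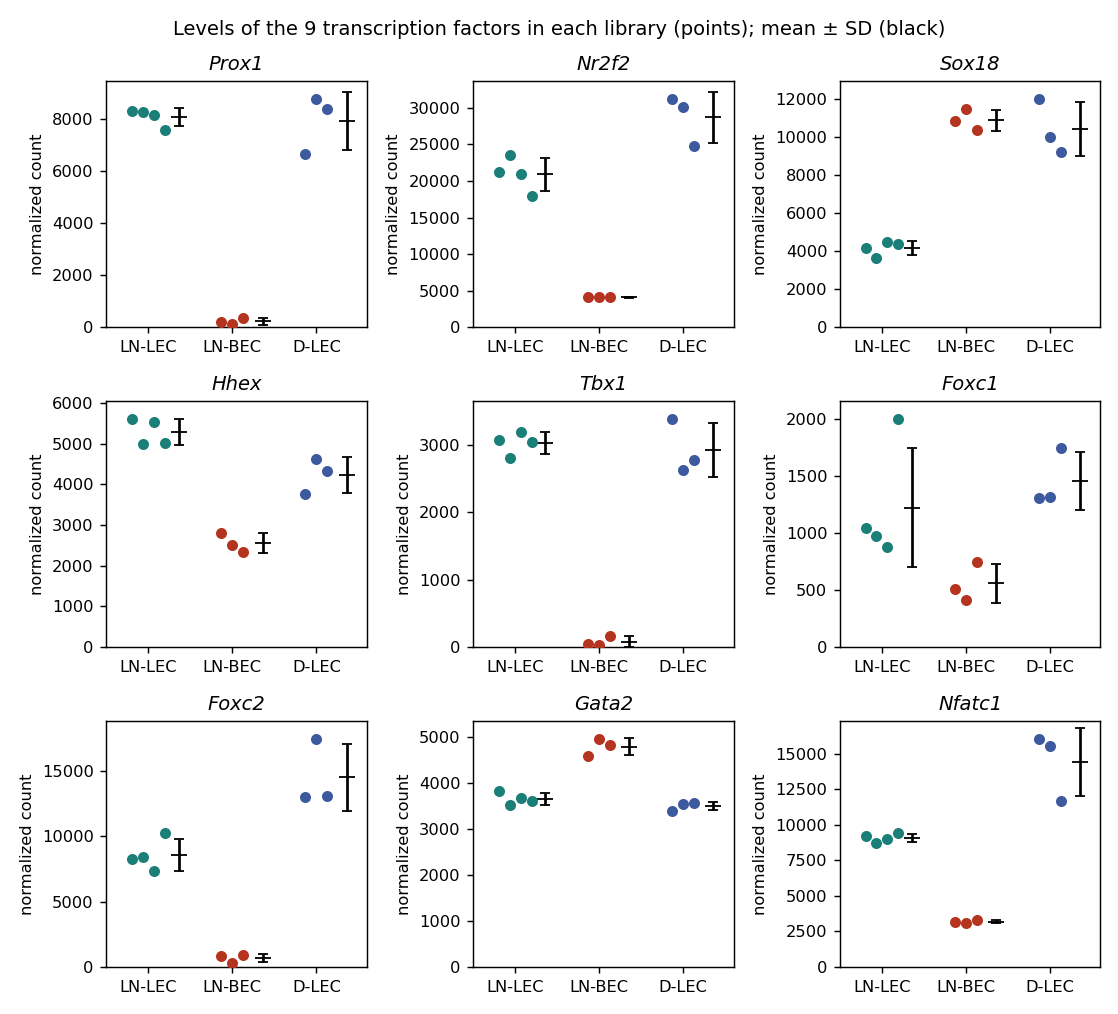
Normalized counts (y axis, from 0) of each of the 9 transcription factors in each library of the 3 populations (points), with mean and SD in black. Prox1 and Tbx1 are near the floor in LN-BEC, Sox18 is low in LN-LEC alone, and the highest Foxc1 point, at 1997, is LN-LEC replicate 4.

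Prox1, the factor that defines lymphatic identity, separated LEC of both tissues from LN-BEC, with no detectable difference between the tissues. Normalized counts (counts divided by DESeq2 size factors) of Prox1 were 8343, 8291, 8188 and 7578 in LN-LEC, 208.3, 115 and 348.7 in LN-BEC, with 6666, 8777 and 8395 in D-LEC. All 7 LEC libraries lay far above the 3 LN-BEC libraries, while those of LN-LEC and D-LEC overlapped. Prox1 was 36.8-fold higher in LN-LEC than LN-BEC (log2 fold change 5.20 ± 0.352 SE, edgeR adjusted p = 2.45e-06) and 35.6-fold higher in D-LEC than LN-BEC (adjusted p = 2.17e-06). Between LN-LEC and D-LEC the log2 difference of Prox1 was 0.05 ± 0.275 (adjusted p = 0.909).

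Nr2f2, the nuclear receptor that acts with Sox18 on the Prox1 gene in veins, was graded across the 3 populations. It read 21270, 23512, 20917 and 17908 normalized counts in LN-LEC, 4172, 4097 and 4078 in LN-BEC, with 31163, 30108 and 24762 in D-LEC. No 2 populations overlapped, and the LN-BEC libraries lay close together, with a coefficient of variation of 1.2%. Nr2f2 was 5.13-fold higher in LN-LEC than LN-BEC (adjusted p = 2.01e-09) and 6.94-fold higher in D-LEC than LN-BEC (adjusted p = 3.8e-10). In LN-LEC it was 74% of the D-LEC level (log2 fold change −0.43 ± 0.105, edgeR adjusted p = 0.00382).

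Sox18, which acts at the top of the lymphatic program in the embryo, did not separate LEC from BEC but set LN-LEC apart. Normalized counts of Sox18 were 4188, 3642, 4504 and 4373 in LN-LEC, 10810, 11441 and 10367 in LN-BEC, with 11974, 9995 and 9213 in D-LEC. Every LN-LEC library lay under all others, and D-LEC and LN-BEC overlapped. Sox18 fell to 38.8% of the LN-BEC level (log2 fold change −1.36 ± 0.101, edgeR adjusted p = 1.17e-07) and to 40.8% of the D-LEC level in LN-LEC (−1.29 ± 0.101, adjusted p = 1.76e-07). Its D-LEC against LN-BEC log2 difference was −0.07 ± 0.109 (adjusted p = 0.611).

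Hhex, a homeobox factor that acts upstream of Flt4 and Prox1, was highest in LN-LEC. The libraries read 5605, 5003, 5542 and 5020 normalized counts in LN-LEC, 2811, 2515 and 2337 in LN-BEC, with 3759, 4618 and 4327 in D-LEC. Here too the populations did not overlap. Hhex was 2.1-fold higher in LN-LEC than LN-BEC (adjusted p = 1.13e-06), 1.65-fold higher in D-LEC than LN-BEC (adjusted p = 5.71e-05) and 1.27-fold higher in LN-LEC than D-LEC (log2 fold change 0.34 ± 0.0973, edgeR adjusted p = 0.0108). Without D-LEC replicate 1, its lowest D-LEC library, the last difference was 0.26 and was not called (adjusted p = 0.0522).

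Tbx1, a T-box factor that acts on Flt4, had almost the same profile as Prox1. Normalized counts of Tbx1 were 3077, 2814, 3200 and 3042 in LN-LEC, 50.77, 28.54 and 170.2 in LN-BEC, with 3388, 2633 and 2782 in D-LEC. The highest LN-BEC value was that of replicate 3, and the LEC populations overlapped. Tbx1 was 37.9-fold higher in LN-LEC (log2 fold change 5.24 ± 0.524, edgeR adjusted p = 7.37e-05) and 36.1-fold higher in D-LEC than LN-BEC (adjusted p = 7.23e-05), and LN-LEC and D-LEC differed by 0.07 ± 0.395 (adjusted p = 0.905). Without LN-BEC replicate 3 the Tbx1 log2 fold changes over LN-BEC were 6.26 for LN-LEC and 6.19 for D-LEC.

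Foxc2, the forkhead factor required for valves and for the quiescence of collecting vessels, was the valve factor with the widest range. It read 8230, 8388, 7335 and 10238 normalized counts in LN-LEC, 818.5, 309.6 and 924.3 in LN-BEC, with 13024, 17463 and 13071 in D-LEC. The 3 populations did not overlap. Foxc2 was 12.7-fold higher in LN-LEC than LN-BEC (log2 fold change 3.66 ± 0.376, edgeR adjusted p = 6.2e-05) and 21.2-fold higher in D-LEC than LN-BEC (4.41 ± 0.398, adjusted p = 2.12e-05). In LN-LEC it was at 59.7% of the D-LEC mean, a log2 difference of −0.74 ± 0.32 that the edgeR fit over all libraries did not call (adjusted p = 0.0903, unadjusted p = 0.0471). The Foxc2 difference passed with DESeq2 (adjusted p = 0.0099), with limma-voom (adjusted p = 0.0261), with LN-LEC and D-LEC fitted alone (edgeR adjusted p = 0.000403) and without LN-BEC replicate 2 (edgeR adjusted p = 0.000379).

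Foxc1, the close relative of Foxc2, was the least abundant of the 9 in both LEC populations, and its calls changed when single libraries were left out. Normalized counts of Foxc1 were 1043, 973.7, 876.3 and 1997 in LN-LEC, 512.1, 415.1 and 746.8 in LN-BEC, with 1305, 1312 and 1748 in D-LEC. LN-LEC replicate 4 lay above every other library, and all LEC libraries lay above LN-BEC. Foxc1 was 2.23-fold higher in LN-LEC than LN-BEC (log2 fold change 1.16 ± 0.33, edgeR adjusted p = 0.0222) and 2.61-fold higher in D-LEC (1.38 ± 0.348, adjusted p = 0.00999). The LN-LEC call was lost without LN-BEC replicate 1 (1.10, adjusted p = 0.0744), without LN-BEC replicate 2 (0.99, adjusted p = 0.0745) and with LN-LEC and LN-BEC fitted alone (adjusted p = 0.0535). Against D-LEC, LN-LEC differed by −0.22 ± 0.315 (adjusted p = 0.596). Without LN-LEC replicate 4 that difference was −0.57 and was called (adjusted p = 0.0352), and the log2 fold change of Foxc1 over LN-BEC was 0.81 (adjusted p = 0.00834).

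Gata2, a zinc-finger factor that acts in valve formation and also in mast cells and blood progenitors, had the smallest differences from LN-BEC among the factors called. It read 3829, 3516, 3670 and 3620 normalized counts in LN-LEC, 4588, 4967 and 4838 in LN-BEC, with 3403, 3556 and 3567 in D-LEC. All LEC libraries lay under all LN-BEC libraries. The LN-LEC level was 77.1% (log2 fold change −0.38 ± 0.0721, edgeR adjusted p = 0.000833) and the D-LEC level 72.9% of the LN-BEC level (adjusted p = 0.000252), and LN-LEC and D-LEC differed by 0.08 ± 0.0727 (adjusted p = 0.385). When library totals replaced TMM factors, the LN-LEC difference of Gata2 was −0.17 and was not called (adjusted p = 0.15), while the median of all genes moved to 0.18. Of 5 mast cell markers, Kit stood at 28.85 to 31.93 FPKM in LN-BEC and at most 4.303 elsewhere. Cpa3 ranged from 0.0195 to 1.687 FPKM between the LN-BEC libraries. Mcpt4 was at 0 in all 3 LN-BEC libraries, and Cma1 and Tpsb2 were at 0 in LN-BEC replicates 1 and 2. The part of mast cells in the Gata2 level was not tested.

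Nfatc1, the calcineurin-dependent factor that acts with Foxc2 in valves, rose from LN-BEC through LN-LEC to D-LEC. Normalized counts of Nfatc1 were 9201, 8732, 8996 and 9420 in LN-LEC, 3179, 3074 and 3301 in LN-BEC, with 16045, 15512 and 11650 in D-LEC. The 3 ranges did not touch. Nfatc1 was 2.89-fold higher in LN-LEC than LN-BEC (log2 fold change 1.53 ± 0.106, edgeR adjusted p = 6.17e-08) and 4.5-fold higher in D-LEC than LN-BEC (adjusted p = 2.31e-09). In LN-LEC it was at 64.1% of the D-LEC level (−0.64 ± 0.1, edgeR adjusted p = 0.000135).

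**Figure D2:**
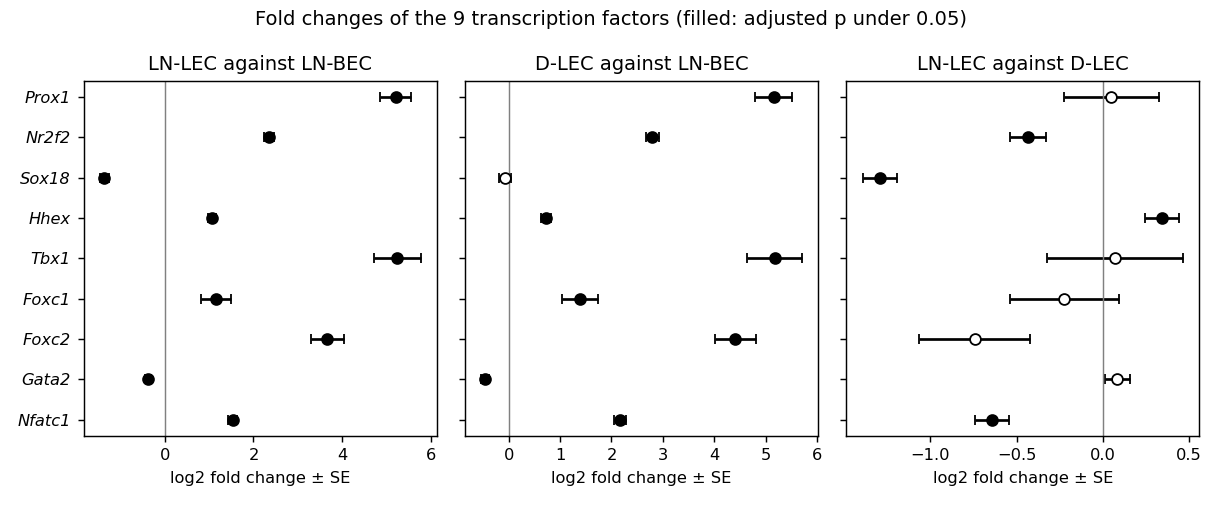
Log2 fold change ± SE (x axis, a separate scale in each panel) of the 9 factors in the 3 comparisons, with filled points for an adjusted p under 0.05. The largest values are those of Prox1 and Tbx1 over LN-BEC, at 5.15 to 5.24, and all values of LN-LEC against D-LEC lie between −1.29 and 0.34.

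Per exon length the factors took different orders in the 3 populations. In LN-LEC, Nr2f2 led with a mean of 140.8 FPKM, followed by Foxc2 at 102.9 ± 14.7 (SD, n = 4), Hhex at 98.01 ± 6.05 and Sox18 at 84.62 ± 7.83. Foxc2, with libraries from 88.52 to 123.4 FPKM, overlapped with Nr2f2 (120.8 to 158), Hhex (92.48 to 103.6) and Sox18 (73.64 to 91.45). Prox1 followed at 64.24 FPKM, Tbx1 at 55.99, Nfatc1 at 40.1, Gata2 at 37.01 and Foxc1 at 10.05, with Nfatc1 and Gata2 overlapping. In LN-BEC, Sox18 stood far above the rest at 217.9 ± 11.3 FPKM (n = 3), with Gata2 (47.99) and Hhex (46.78) next and overlapping, then Nr2f2 at 27.42 and Nfatc1 at 13.9. Foxc2 at 8.14, Foxc1 at 4.54, Prox1 at 1.76 and Tbx1 at 1.52 FPKM closed the LN-BEC order, where Foxc2 overlapped with Foxc1 and Prox1 with Tbx1. Among all tested genes, Prox1 lay at the 93.6th percentile in LN-LEC and the 37.9th in LN-BEC. In D-LEC, Sox18 (207.3 ± 26.5 FPKM, n = 3), Nr2f2 (190.2 ± 22.1) and Foxc2 (172.4 ± 31.6) overlapped at the top. Hhex at 77.32, Nfatc1 at 62.59, Prox1 at 62.15, Tbx1 at 53.31, Gata2 at 34.97 and Foxc1 at 11.79 FPKM followed, and Nfatc1 overlapped with Hhex, Prox1 and Tbx1. Sox18 thus had the highest mean in LN-BEC and D-LEC but not in LN-LEC, while Foxc1 stood last in both LEC populations.

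Ratios within a library do not depend on the scaling between libraries. The Prox1 to Nr2f2 ratio, taken as counts per exon kilobase, was 0.462, 0.415, 0.461 and 0.498 in LN-LEC, 0.252, 0.343 and 0.399 in D-LEC, and 0.0589, 0.0332 and 0.101 in LN-BEC. All LN-LEC ratios were above all D-LEC ratios, with a log2 difference of 0.49 (exact two-sided permutation p = 0.0571, the smallest that 4 against 3 libraries allow). The Foxc2 to Foxc1 ratio was 11.5, 12.6, 12.3 and 7.51 in LN-LEC, 14.6, 19.5 and 11 in D-LEC, and 2.34, 1.09 and 1.81 in LN-BEC. Foxc2 outweighed Foxc1 in all 10 libraries, by less in LN-BEC than in any LEC library, and the LEC populations overlapped. As log2 values the Foxc2 to Foxc1 ratios of LN-LEC were 2.69 above those of LN-BEC (exact p = 0.0571) and 0.44 below those of D-LEC (exact two-sided permutation p = 0.229).

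What was left of the LEC factors in LN-BEC ranged from near the level of several LEC markers, for Prox1 and Tbx1, to over 40% of the LN-LEC level in every library, for Hhex. Relative to the mean LN-LEC level, the LN-BEC libraries held 2.57, 1.42 and 4.3% of Prox1 and 1.67, 0.941 and 5.61% of Tbx1. For the surface and matrix markers the values were 1.45, 1.06 and 5.88% of Lyve1, 2.72, 0.949 and 6.23% of Pdpn, and 1.42, 0.942 and 5.23% of Reln. Mmrn1 held 2.5, 1.03 and 6.66%, and the receptor gene Flt4 held more, at 14.6, 11.9 and 16.6%. On this scale Prox1 and Tbx1 lay near Lyve1, Pdpn, Reln and Mmrn1 and under Flt4, and all 7 genes were highest in LN-BEC replicate 3. Relative to the D-LEC mean the order was different, with 1.45 to 4.39% of Prox1 and 0.973 to 5.8% of Tbx1 beside 0.0331 to 0.184% of Reln, 0.386 to 2.15% of Lyve1 and 0.282 to 1.85% of Pdpn. Against the LN-LEC mean, Foxc2 held 9.58, 3.62 and 10.8%. Nr2f2 (19.5 to 20%), Nfatc1 (33.8 to 36.3%) and Hhex (44.2 to 53.1%) held more, within narrow ranges. Of these, Nr2f2 and Hhex were lowest in replicate 3, and Nfatc1 was highest there. The Foxc1 values were 41.9, 34 and 61.1%, a range that took in those of Hhex and overlapped with Nfatc1. The part of LEC in the LN-BEC values was not tested.

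**Figure D3:**
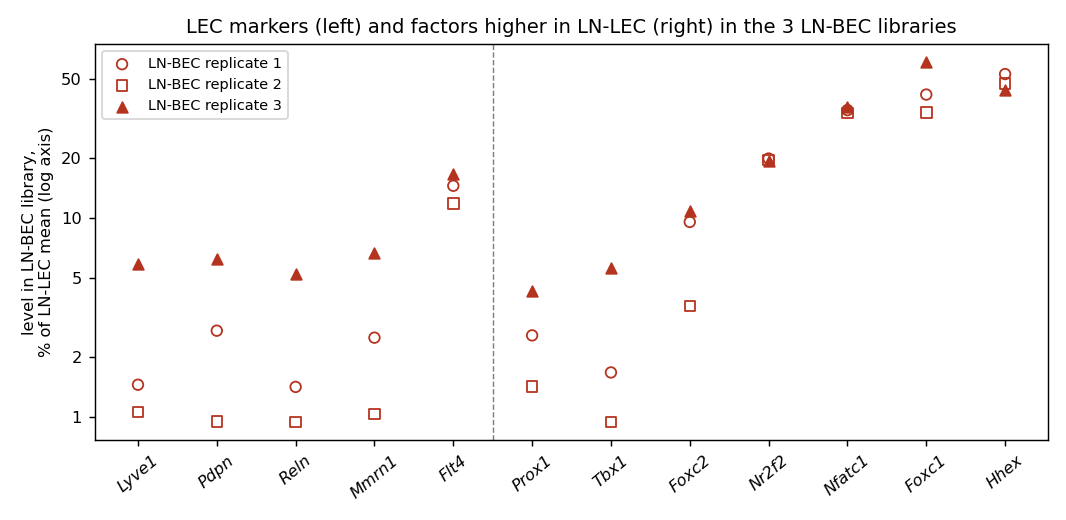
Level in each of the 3 LN-BEC libraries relative to the mean LN-LEC level, in percent (log y axis) for 5 LEC markers (left of the dashed line) and the 7 factors higher in LN-LEC (right), with 1 symbol per library. Replicate 3 (filled triangles) is highest for all genes shown except Nr2f2 and Hhex, and the symbols of Nr2f2 and Nfatc1 nearly coincide.

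Relatives in the same families were compared with the factors, since a family can hold members with opposite profiles. Of 15 relatives, 3 were higher and 6 lower in LN-LEC than LN-BEC, 2 higher and 6 lower in D-LEC than LN-BEC, and 5 higher and 2 lower in LN-LEC than D-LEC. The shares of all genes called higher and lower were 19.8% and 18.4%, 22.4% and 25.6%, and 24% and 21.7% in the same order. The 3 of 15 called higher in LN-LEC than LN-BEC were thus near the share of all genes. Sox17, an arterial relative of Sox18, had 3582, 3729 and 3954 normalized counts in LN-BEC, 24.88 to 58.46 in LN-LEC and 15.14 to 21.48 in D-LEC, a 90.3-fold lower LN-LEC level (log2 fold change −6.50 ± 0.191, edgeR adjusted p = 5.7e-11). Sox7, the third of this SOX group, was 2.02-fold lower in LN-LEC than LN-BEC (adjusted p = 2.09e-07), and LN-LEC and D-LEC differed by −0.01 ± 0.0806 (adjusted p = 0.927). Tbx3 ran against Tbx1: it had 1059, 1198 and 1315 normalized counts in LN-BEC and at most 41.48 in any LEC library, and was 56.6-fold lower in LN-LEC than LN-BEC (−5.82 ± 0.485, edgeR adjusted p = 1.05e-05). The smallest differences between LN-LEC and LN-BEC were those of Nr2f6 (0.09 ± 0.0884, adjusted p = 0.473) and Prox2 (0.33 ± 0.255, adjusted p = 0.346), and Prox2 differed by −0.04 ± 0.253 between LN-LEC and D-LEC (adjusted p = 0.915).

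Among the GATA factors, those with the widest difference between tissues were Gata4 and Gata6, which act in heart and gut endoderm. Gata6 read 7591, 7267, 8261 and 7035 normalized counts in LN-LEC, 463.9, 194.6 and 588.2 in LN-BEC, with 314.1, 308.6 and 431.3 in D-LEC. Every LN-LEC library lay far above all others. Gata6 was 21.7-fold higher in LN-LEC than D-LEC (log2 fold change 4.44 ± 0.363, edgeR adjusted p = 1e-05) and 18.4-fold higher than LN-BEC (adjusted p = 1.45e-05). Gata4 read 850.3, 815, 850.3 and 878.9 normalized counts in LN-LEC, 0.875, 0.865 and 68.27 in LN-BEC, with 45.41, 3.01 and 25.61 in D-LEC. It was 36.1-fold higher in LN-LEC than D-LEC (5.18 ± 1.03, edgeR adjusted p = 0.00424), and without D-LEC replicate 1 the log2 fold change of Gata4 was 5.82. At 77.41 FPKM, Gata6 was above Gata2 (37.01 FPKM) in LN-LEC, whereas in D-LEC and LN-BEC Gata2 led, at 34.97 and 47.99 FPKM beside 3.56 and 4.22 for Gata6.

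**Figure D4:**
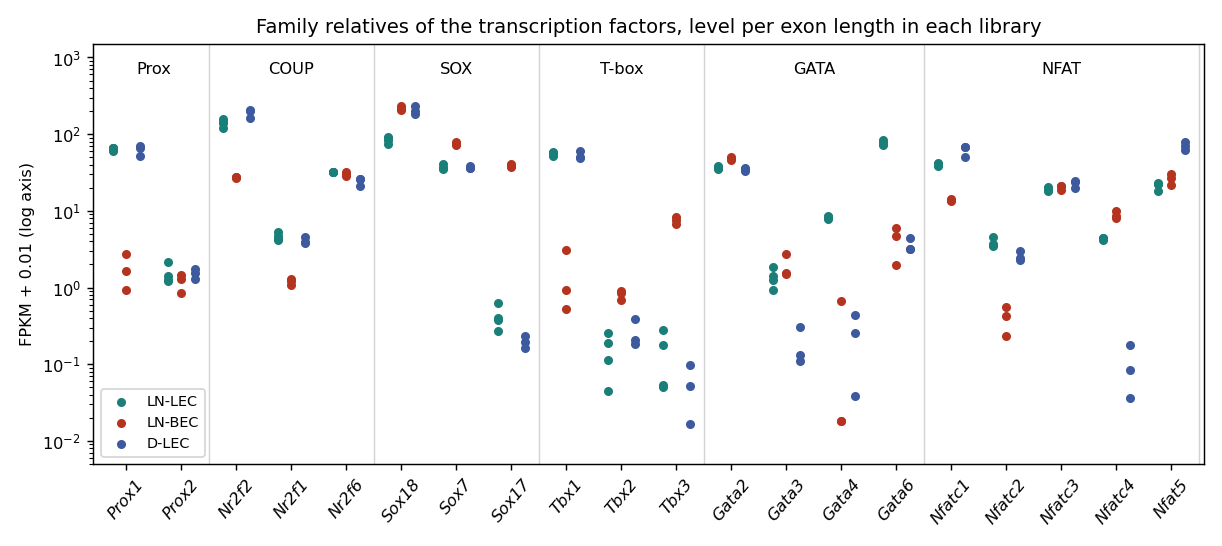
FPKM plus 0.01 (log y axis) of factors and relatives of the Prox, COUP, SOX, T-box, GATA and NFAT families in each library. Points are grouped by family and coloured by population (green LN-LEC, red LN-BEC, blue D-LEC). Foxc1, Foxc2, Hhex and the relatives Gata1, Gata5, Tbx5, Tbx15 and Tbx18 are not shown. Gata4 and Gata6 are high in LN-LEC alone, Sox17 and Tbx3 in LN-BEC alone, and Nfatc4 is low in D-LEC alone.

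The pathway that activates NFAT proteins was measured through 11 genes: the calcineurin subunits, the other NFAT factors and the regulators Rcan1, Rcan2 and Cabin1. In LN-LEC against LN-BEC, 3 were higher and 3 lower (median log2 fold change −0.09). In D-LEC against LN-BEC, 4 were higher and 2 lower (0.17), and in LN-LEC against D-LEC 3 were higher and 6 lower (−0.23). The shares of all genes called higher and lower were 19.8% and 18.4%, 22.4% and 25.6%, and 24% and 21.7% in the same order. Nfatc2 followed Nfatc1 in being higher in LN-LEC than LN-BEC (3.28 ± 0.249, 9.74-fold, edgeR adjusted p = 7.4e-07), at 3.82 beside 40.1 FPKM for Nfatc1 in LN-LEC. Nfatc4 went the other way, with 1076, 1222 and 993.6 normalized counts in LN-BEC, 513.6 to 541.8 in LN-LEC and 21.44, 9.02 and 3.31 in D-LEC, and was 52.1-fold higher in LN-LEC than D-LEC (5.70 ± 0.298, edgeR adjusted p = 9.13e-09; 6.47 without D-LEC replicate 1). Nfat5, which responds to osmotic stress and not to calcineurin, was 3.29-fold lower in LN-LEC than D-LEC (adjusted p = 9.04e-08). Rcan1, an inhibitor of calcineurin whose transcription NFAT raises and which was named after its values were seen, had 635.2 to 871.3 normalized counts in LN-LEC, 408.2 to 528.3 in LN-BEC, with 1539 to 1804 in D-LEC, the same order as Nfatc1, and was 2.23-fold lower in LN-LEC than D-LEC (−1.16 ± 0.128, edgeR adjusted p = 5.21e-06). Rcan2 was 8.77-fold lower in LN-LEC than LN-BEC (adjusted p = 9.91e-06). Between the tissues Nfatc2 did not follow Nfatc1: it was higher in LN-LEC than D-LEC (0.58 ± 0.212, edgeR adjusted p = 0.0442). That Nfatc2 call was lost in 8 of 19 alternatives (adjusted p up to 0.139). Ppp3r1 (higher, edgeR adjusted p = 0.0455) and Ppp3cb (lower, edgeR adjusted p = 0.0489) were also called close to the threshold there. The catalytic subunit gene Ppp3ca differed by 0.02 ± 0.127 between LN-LEC and D-LEC (adjusted p = 0.919) and Cabin1 by −0.19 ± 0.0963 (adjusted p = 0.126). Against LN-BEC, the smallest LN-LEC differences were those of Ppp3cb (0.14 ± 0.0893, adjusted p = 0.247) and Nfatc3 (−0.09 ± 0.0906, adjusted p = 0.459).

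A list of 19 genes that act in valves downstream of or beside these factors did not move as a block. In LN-LEC against LN-BEC 8 were higher and 7 lower (median log2 fold change 0.08), in D-LEC against LN-BEC 10 were higher and 5 lower (0.40), and in LN-LEC against D-LEC 8 were higher and 5 lower (0.13). The shares of all genes called higher and lower were 19.8% and 18.4%, 22.4% and 25.6%, and 24% and 21.7% in the same order. Sema3a, a guidance cue needed for valve leaflets, was 38.3-fold higher in LN-LEC than LN-BEC (5.26 ± 0.572, edgeR adjusted p = 0.000146), or 6.04 on the log2 scale without LN-BEC replicate 3. Cldn11, a tight junction protein of valves, had 5057 to 6132 normalized counts in LN-LEC, 346.6 to 582.9 in LN-BEC, with 520.9 to 579.2 in D-LEC, and was 13.3-fold higher in LN-LEC than LN-BEC (adjusted p = 2.37e-09) and 10.4-fold higher than D-LEC (edgeR adjusted p = 3.49e-09). Lama5, a laminin chain of the leaflet matrix, was 9.87-fold higher in LN-LEC than D-LEC (3.30 ± 0.112, adjusted p = 5.55e-11). Rasa1 differed by −0.02 ± 0.0843 from LN-BEC (adjusted p = 0.894) and by −0.04 ± 0.0843 from D-LEC (adjusted p = 0.701), Ephb4 by 0.06 ± 0.0716 from LN-BEC (adjusted p = 0.582) and Efnb2 by 0.03 ± 0.114 from D-LEC (adjusted p = 0.868).

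A list of 10 lymphatic identity genes, several of them targets of Prox1, were mostly higher in LEC: 7 were higher and 2 lower in LN-LEC than LN-BEC (median log2 fold change 3.18), and 8 higher and 2 lower in D-LEC than LN-BEC (4.07). The shares of all genes called higher and lower were 19.8% and 18.4%, and 22.4% and 25.6%. The list holds all 5 LEC markers used to check the labels (Lyve1, Pdpn, Reln, Flt4 and Mmrn1), and Pdpn was a marker of the sort. All 5 were called higher in both LEC populations than LN-BEC, so that their direction is not a separate result. These counts and medians rest in large part on them. Lower in both LEC populations were Fgfr3 (−0.49 in LN-LEC, −2.40 in D-LEC) and Cdkn1c (−1.49 in LN-LEC, −1.40 in D-LEC). Unlike Prox1 itself, 6 of the 10 were lower and 2 higher in LN-LEC than D-LEC (−1.63), beside 21.7% and 24% of all genes. Flt4, the VEGF-C receptor on which Prox1, Hhex and Tbx1 act, had 15460 to 17361 normalized counts in LN-LEC, 1926 to 2693 in LN-BEC, with 73646 to 92999 in D-LEC, and was 4.96-fold lower in LN-LEC than D-LEC (−2.31 ± 0.118, edgeR adjusted p = 2.4e-09). Reln, a secreted matrix protein, was 28-fold lower (−4.81 ± 0.497, adjusted p = 8.65e-05) and Mmrn1 6.03-fold lower in LN-LEC than D-LEC (−2.59 ± 0.524, edgeR adjusted p = 0.0044). Itga9, the integrin of valve leaflets, was 1.44-fold higher in LN-LEC (0.52 ± 0.125, adjusted p = 0.00377), and Cdkn1c differed by −0.09 ± 0.387 (adjusted p = 0.874). Against LN-BEC, the largest LN-LEC differences were those of Reln (5.35 ± 0.588, edgeR adjusted p = 0.000141) and Lyve1 (5.18 ± 0.688, adjusted p = 0.000506), which were 6.41 and 6.32 without LN-BEC replicate 3. Nrp2, the co-receptor of Flt4, differed by 0.02 ± 0.0899 (adjusted p = 0.914) and Angpt2 by 0.39 ± 0.128 (adjusted p = 0.0267). The Angpt2 call was lost without LN-LEC replicate 3 (0.38, adjusted p = 0.054), LN-LEC replicate 4 (0.27, adjusted p = 0.0703) or LN-BEC replicate 1 (0.30, edgeR adjusted p = 0.123). Flt4 was named after its values were seen.

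Of 11 other transcription factors of lymphatic and valve development, 8 were lower in LN-LEC than D-LEC, none was higher and 3 were not called (median log2 fold change −0.65). Against LN-BEC 5 were higher and 6 lower in LN-LEC (−0.31), and 8 higher and none lower in D-LEC (0.70). Over all genes, 24% were higher and 21.7% lower in LN-LEC than D-LEC, and 19.8% higher and 18.4% lower in LN-LEC than LN-BEC. For D-LEC against LN-BEC these shares were 22.4% and 25.6%. Klf4, a flow-induced factor, had 6427, 5762, 5994 and 10100 normalized counts in LN-LEC, 16736 to 23943 in LN-BEC, with 29598 to 37434 in D-LEC, and was 4.58-fold lower in LN-LEC than D-LEC (−2.20 ± 0.201, edgeR adjusted p = 4.24e-06). Klf2, its relative, was 3.74-fold lower in LN-LEC than D-LEC (−1.90 ± 0.277, adjusted p = 0.000414). Both were also lower in LN-LEC than LN-BEC (Klf4 −1.49 ± 0.198, adjusted p = 9.84e-05, and Klf2 −1.56 ± 0.275, edgeR adjusted p = 0.00159), so that Klf2, Klf4 and Sox18 shared the profile of a low LN-LEC level. This profile was not limited to them: Ctnnb1, Foxo1, Runx1 and Wwtr1 of this list were also called lower in LN-LEC than in LN-BEC and D-LEC. Maf, a leucine zipper factor of lymphatic development, was 30.4-fold higher in LN-LEC than LN-BEC (4.93 ± 0.401, edgeR adjusted p = 1.06e-05) and differed by −0.15 ± 0.322 from D-LEC (adjusted p = 0.739). Lyl1 was 5.51-fold higher in LN-LEC than LN-BEC (adjusted p = 6.7e-08). Foxo1 (−0.31 ± 0.081, adjusted p = 0.00825) and Wwtr1 (−0.42 ± 0.0848, edgeR adjusted p = 0.00114) had the smallest differences from LN-BEC, and neither was called with library totals in place of TMM (Foxo1 −0.11, adjusted p = 0.407, and Wwtr1 −0.23, adjusted p = 0.0907).

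For each factor the genes with the most similar profile were taken by Pearson's r of log2 CPM over the 10 libraries. The libraries form 3 populations, so that r here mostly describes the order of the population means, and no test was made. Prox1 was most like Maf (r = 0.997) and Rbms3 (0.996), and Maf had 34636 ± 3386 normalized counts in LN-LEC, 1154 ± 691 in LN-BEC, with 38974 ± 4740 in D-LEC. Tbx1 was most like Slc16a12 (0.997), Fam174b (0.996) and Ptprf (0.996), and Prox1 and Tbx1 themselves reached 0.993. Nr2f2 was most like Rab11fip3 (0.996), Serinc5 (0.994) and Wdr17 (0.994), and Nfatc1 most like Emid1 (0.994), Loxl2 (0.991) and Dtx1 (0.99). Foxc2 was most like Fxyd6 (0.993), Ptx3 (0.993) and Kctd1 (0.993), and Hhex most like Nexn (0.994), Rtn4rl1 (0.989) and Glo1 (0.987). Sox18 was most like Abcg1 (0.992), Cables2 (0.986) and Plekho1 (0.985), of which the cholesterol transporter gene Abcg1 had 1043 ± 147 normalized counts in LN-LEC, 5199 ± 124 in LN-BEC, with 4843 ± 180 in D-LEC. Gata2 was most like Lipe (0.984), Swap70 (0.981) and Entpd1 (0.98). Foxc1 was most like Fam54b (0.987), Lmo4 (0.963) and Brp44 (0.962), and had 4 genes above an r of 0.95, where the other factors had 87 to 266.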

How the data were processed

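Cells were depleted of CD45-positive cells, sorted by CD31 and PDPN, and amplified with the Ovation RNA-Seq V2 kit before sequencing. Per the study's methods, the authors trimmed reads, aligned them to mm9 with STAR (version not given in the sources used here) and deposited counts per gene from featureCounts 1.4.4, in which a read pair counts once, strand is ignored, and ambiguous or multiply mapped pairs are left out. Amplified fragments carry no molecular identifiers. Rows with unnamed symbols (3750 of 23284) were left out of tests. The quasi-likelihood test of edgeR 4.0.16 (R 4.3.3, TMM factors) was fitted to all 10 libraries, with Benjamini-Hochberg adjustment over 15375 genes whose normalized count averaged 1 or more in at least 1 population. Calls used an adjusted p under 0.05. Each SE of a log2 fold change is its absolute value divided by the square root of the F statistic of the test. Levels are counts divided by DESeq2 1.42.0 size factors, or FPKM computed from exon length and TMM-scaled library totals. Ratios had 0.5 counts added to each gene and were compared by exact permutation tests. Named were all 9 factors, the 2 largest and 2 smallest changes of each list in each comparison described, and the 3 genes most like each factor (log2 CPM, prior count 2); some of these are not reported here. Bmx, Ctnnb1, Fgfr3, Flt4, Hey1, Ppp3r1, Rcan1, Runx1 and values of a gene in further comparisons were added after their values were seen. The 9 factors and the gene lists were chosen with earlier results of these data known. Alternatives were other scalings, filters and gene sets, DESeq2, limma-voom 3.58.1, fits of 2 populations, and leaving out libraries. No label gives a batch, a day or a pairing. The p-values measure the spread between libraries, in which pool of mice, sort, amplification and sequencing cannot be told apart. Whether LN-LEC and LN-BEC libraries shared pools of nodes is not given, and no pairing was fitted.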

Additional observations from a re-analysis of the deposited data

Results flagged for a closer look

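In 6 of 49 tested values of the 4 LN-LEC libraries, 1 library stood apart from the other 3 by more than Dixon's 95% limit on the gap as a share of the range, which chance alone gives in about 1 of 20 groups. In 5 of them it was LN-LEC replicate 4, the deepest library. Among the factors it was Foxc1, with a gap of 0.851 of the range and 1997 normalized counts in replicate 4. The log2 ratio of Foxc2 to Foxc1 followed, with a gap of 0.830 and a value of 2.91 in replicate 4. In the same library Nfatc2 (gap 0.841, 1145 normalized counts), Mmrn1 (gap 0.878, 40070 normalized counts) and Klf4 (gap 0.847, 10100 normalized counts) were the highest of the 4. For Nfat5 it was replicate 3, the lowest, with a gap of 0.876 and 7396 normalized counts. The cause was not tested.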

How the results depend on the processing

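Each of the 27 fold changes of the 9 factors was recomputed under 19 alternatives, and in 498 of 513 cases the direction and the call were kept. Of the rest, 4 changed sign, 5 lost the call and 6 gained it. Library totals in place of TMM moved the median log2 fold change of all genes to 0.18 for LN-LEC and 0.14 for D-LEC against LN-BEC. With them 1 factor in place of 2 was called lower in LN-LEC than LN-BEC, since Gata2 lost its call, and the sign changed for Sox18 in D-LEC against LN-BEC (0.11) and for Rasa1 (0.18) and Nfatc3 (0.10) in LN-LEC against LN-BEC. Nrp2 there was −6.8e-06 with DESeq2, and Ppp3ca in LN-LEC against D-LEC was −0.0015 with DESeq2 and with its size factors. Leaving out libraries, the number of factors called higher in LN-LEC than D-LEC ranged from 0 to 1. Sign changes arose only where no difference was called: Prox1 (−0.07 to 0.13), Tbx1 (−0.00061 to 0.18), Sox7 (−0.08 to 0.02), Prox2 (−0.27 to 0.07), Efnb2 (−0.04 to 0.16) and Ppp3ca (−0.11 to 0.10) in LN-LEC against D-LEC, Rasa1 (−0.08 to 0.02) and Nrp2 (−0.03 to 0.06) in LN-LEC against LN-BEC, and Sox18 (−0.18 to 0.01) in D-LEC against LN-BEC. Of 948 cases of named list genes, 903 kept direction and call. The number of all genes called ranged from 5077 to 6614, 6586 to 8183 and 6243 to 7790 in the 3 comparisons. With 3 or 4 libraries a population, the differences of factors not called between LN-LEC and D-LEC are known only roughly. Their SE also rests on 1 spread per gene shared by all 3 populations, LN-BEC included. The LN-BEC coefficient of variation was 91.6% for Tbx1, 52.5% for Prox1 and 48% for Foxc2, beside 4.37 to 17.6% in the LEC populations. For Foxc1 it was highest in LN-LEC (42.6%), and for Gata2 at most 4.02% in any population. The true values of these differences may lie farther off than 1 standard error. Genes near 0 in LN-BEC rest on few fragments there.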

Other observations

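Arterial and Notch genes, which oppose the venous and lymphatic program in development, were mostly lower in LN-LEC than LN-BEC. Of 10 such genes, 8 were lower and 2 higher (median log2 fold change −3.82), beside 18.4% and 19.8% of all genes. The 2 higher were Bmx (2.12) and Efnb2. Nrp1 and Notch4 were also among the BEC markers used to check the labels, so that their direction is not a separate result. Sox17 (−6.50 ± 0.191, edgeR adjusted p = 5.7e-11) and Nrp1, a co-receptor of VEGF (−6.06 ± 0.323, edgeR adjusted p = 3.81e-07), had the largest differences. Notch1 (−0.33 ± 0.089, adjusted p = 0.00895) and the ephrin gene Efnb2 (0.43 ± 0.115, edgeR adjusted p = 0.00877) had the smallest. The adjusted p of Efnb2 ranged from 0.000891 to 0.063 over the alternatives, and it was 0.063 without LN-BEC replicate 3 and LN-LEC replicate 4. That of Notch1 ranged from 0.00165 to 0.388, and its call was lost with library totals (−0.13) and without LN-BEC replicate 2 (−0.27, edgeR adjusted p = 0.0649). In D-LEC 5 of the 10 were higher and 5 lower than LN-BEC, beside 22.4% and 25.6% of all genes. Hey1, a Notch target named after its values were seen, had a mean of 284 normalized counts in LN-LEC, 5022 in LN-BEC, with 6542 in D-LEC, and was 22.6-fold lower in LN-LEC than D-LEC (−4.50 ± 0.115, edgeR adjusted p = 6.93e-12).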
